A study of Homo sapiens with 12 samples.

Results

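NFE2L2, which encodes the transcription factor NRF2, its inhibitor KEAP1 and genes of cellular redox defence were followed through both experiments of a study of RNA polymerase III (Pol III) in HEK293T cells. The 33 genes were listed by name and not by a threshold on a measured value, most of them as textbook targets of NRF2. They were chosen with earlier results of these data known. Each was found by its GENCODE symbol, and all 33 were matched among the 34318 genes to which the deposited transcripts could be assigned. HEK293T is an established cell line derived from human embryonic kidney, and it is labelled here as epithelial. In the first experiment cells were transfected with a control siRNA (siControl) or with an siRNA against POLR3A (siPOLR3A), the gene of the largest Pol III subunit, and were collected after 2 days. In the second experiment they were kept for 4 hours in 25 µM ML60218, a small molecule used as a Pol III inhibitor, or in its vehicle, DMSO at 0.1%. This dose, vehicle and time come from the series description alone, and the protocol text of all 12 samples, the DMSO and ML60218 samples included, names an siRNA transfection. Whether the cells of the second experiment were also transfected is therefore not known here. Each of the 4 groups held 3 libraries of messenger RNA. The sequences of the siRNAs and the number of siRNAs per target are not given in the sources used here. The agents, the durations and the controls all differed between the experiments. The sample titles name HEK293T only in the first experiment, while those of the second give a shorter cell name. The titles alone do not settle whether the same line was used in both.

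NRF2 is held low in unstressed cells by KEAP1, an adaptor that presents it to a ubiquitin ligase built on CUL3. Oxidants and electrophiles modify cysteines of KEAP1, newly made NRF2 then escapes degradation, and together with a small MAF protein such as MAFG it binds antioxidant response elements near its targets. These targets make and recycle glutathione, run the thioredoxin system, supply NADPH, handle heme and iron, reduce quinones and carbonyls, and export conjugates. Most of this control acts on the NRF2 protein, which was not measured here, so the NFE2L2 transcript is not a measure of NRF2 activity.

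The libraries held between 37008325 and 49479476 estimated reads, and transcripts of the mitochondrial genome made up 5.38% to 9.73% of those assigned to a gene. In the siPOLR3A libraries POLR3A itself fell from 90.8 ± 3.57 to 17.6 ± 2.65 CPM (counts scaled to the size of the library, given as mean ± SD, n = 3), a log2 fold change of −2.36 with an SE of 0.108 (adjusted p 1.94e-05). Of 5 epithelial markers, 4 (KRT8, KRT18, CDH1 and EPCAM) averaged at least 1 TPM in every group (TPM is a level scaled to the library and corrected for transcript length), and KRT19 was listed at 0 in all but the ML60218 group. Of 5 kidney lineage markers, PAX2 was above 1 TPM on average in every group, while PAX8 stayed below 1 and CDH16 was listed at 0 in every library. LHX1 averaged 1.56, 1.06 and 1.49 TPM in siControl, siPOLR3A and DMSO and 0.994 TPM in ML60218. UMOD was listed at 0 in all but the siPOLR3A group. The blood markers PTPRC and HBB were listed at 0 throughout, and the endothelial and hepatocyte lists summed to at most 0.128 and 0.380 TPM. Of 3 fibroblast markers, COL1A1 and COL3A1 averaged at least 1 TPM in every group. The 3 summed to between 22.4 and 24.0 TPM in siControl and between 25.7 and 29.7 TPM in siPOLR3A. Their sums were between 19.4 and 21.1 TPM in DMSO and between 19.9 and 21.8 TPM in ML60218. After the siRNA COL1A1 was called higher (log2 fold change 0.32) and COL3A1 lower (−0.58), and with ML60218 neither was called. The neurofilament genes NEFL, NEFM and INA summed to between 165 and 189 TPM in siControl and between 88.5 and 93.0 TPM in siPOLR3A. They summed to between 125 and 133 TPM in DMSO and between 146 and 162 TPM in ML60218. These sums hide opposite directions. After the siRNA NEFL (log2 fold change −0.68) and NEFM (−1.39) were called lower and INA higher (0.25). With ML60218 NEFL (0.12) and NEFM (0.16) were called higher and INA lower (−0.15). The part of these shifts in any result below was not tested.

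The antioxidant response element was looked for in the promoters of the members, since it is the sequence through which NRF2 acts. RefSeq promoter sequences on GRCh38.p14, from 250 bases before to 50 bases after the annotated start, were held for 25 of the 33 members. No entry was found for HMOX1, FTH1, GSR, PRDX1, PRDX6, AKR1B10, ABCC1 and SOD1. The motif TGACNNNGC, the core of the element, was searched on both strands. It was present in 4 of the 25 members (16%), against 13.3% of all 35116 promoters of the same length. Among members with an entry, 3 of the 8 called lower after the POLR3A siRNA held a match. So did 1 of the 8 called higher and 0 of the 6 not called. NQO1 and NFE2L2 fell without a match in this window, and a link between match and change was not tested. The matches are shown 5′ to 3′ on the strand of the gene, with the matched bases in capitals. A match that begins with GC holds the motif on the opposite strand.
GCLM, chr1:93909446-93909474, minus strand: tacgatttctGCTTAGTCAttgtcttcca
TXNRD1, first match, chr12:104215670-104215698, plus strand: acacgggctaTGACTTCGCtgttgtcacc
TXNRD1, second match, chr12:104215761-104215789, plus strand: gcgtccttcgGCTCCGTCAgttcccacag
PGD, chr1:10398853-10398881, plus strand: cctcgccgggGCAATGTCAtctaggtgct
ME1, first match, chr6:83431170-83431198, minus strand: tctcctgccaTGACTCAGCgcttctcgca
ME1, second match, chr6:83431022-83431050, minus strand: gctgcagtcaGCACCGTCAccccagcagc
The first match of ME1 also contains TGACTCA, the letters of a common AP-1 site. A match describes the letters of the window only, and members without one may carry elements outside it.

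The members covered a wide span of levels in the control libraries. The peroxide-reducing enzyme PRDX1 was the most abundant at 974 ± 23.6 TPM in siControl and 1035 ± 40.8 TPM in DMSO (mean ± SD, n = 3). The ferritin heavy chain FTH1, thioredoxin (TXN) and the cytosolic superoxide dismutase SOD1 followed, with FTH1 at 648 ± 20.1 and 721 ± 20.5 TPM. The sensor pair was expressed at middle levels, NFE2L2 at 35.9 ± 1.83 and 39.2 ± 1.22 TPM and KEAP1 at 24.1 ± 1.35 and 30.4 ± 0.887 TPM. NQO1, the quinone reductase most often used as a readout of NRF2, stood at only 4.43 ± 0.181 and 5.14 ± 0.3 TPM. The aldo-keto reductases AKR1B10, AKR1C1, AKR1C2 and AKR1C3 held between 0 and 7 reads in any library, and these 4 members could not be tested. HMOX1 was at 10.4 ± 2.00 TPM in siControl and 17.4 ± 1.45 TPM in DMSO, controls that differ in agent and duration and were not compared by a test.

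**Figure D1:**
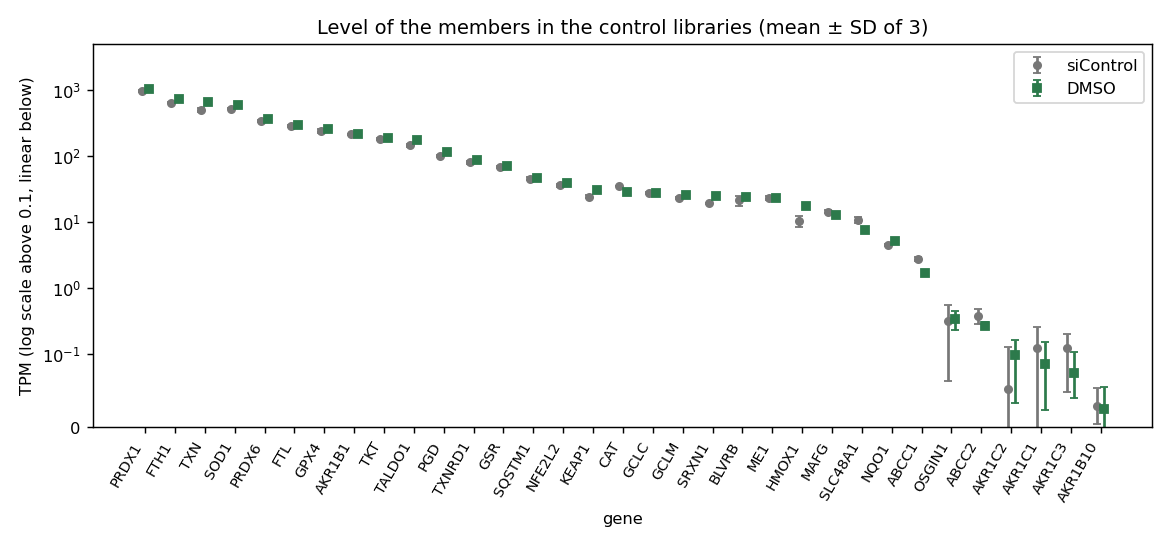
Mean TPM of the 33 members in the siControl (circles) and DMSO (squares) libraries, with the SD of 3 libraries as error bars, on an axis that is logarithmic above 0.1 TPM and linear below. PRDX1 stands at the top of the range and the 4 aldo-keto reductases AKR1C1, AKR1C2, AKR1C3 and AKR1B10 at the bottom.

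After the POLR3A siRNA the members split evenly in direction. Of the 29 tested, 20 passed the test, 10 higher and 10 lower in siPOLR3A (edgeR quasi-likelihood test, Benjamini-Hochberg adjusted p under 0.05 over all genes). Among all 15404 genes tested, 56.6% were called, 27.4% higher and 29.2% lower, beside 69.0% of the members. NQO1 fell most, followed by GCLM, the modifier subunit of glutathione synthesis, NFE2L2 itself and the NADPH source PGD. The largest rises were those of the conjugate exporter ABCC2, biliverdin reductase BLVRB, sulfiredoxin (SRXN1) and both ferritin chains. The median log2 fold change of the tested members was 0.024, against 0.0054 for all genes. With upper quartile scaling the split was 15 higher and 8 lower, and with total counts 15 and 9. These are bulk libraries, in which fewer cells of a type and less RNA per cell cannot be told apart.

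**Figure D2:**
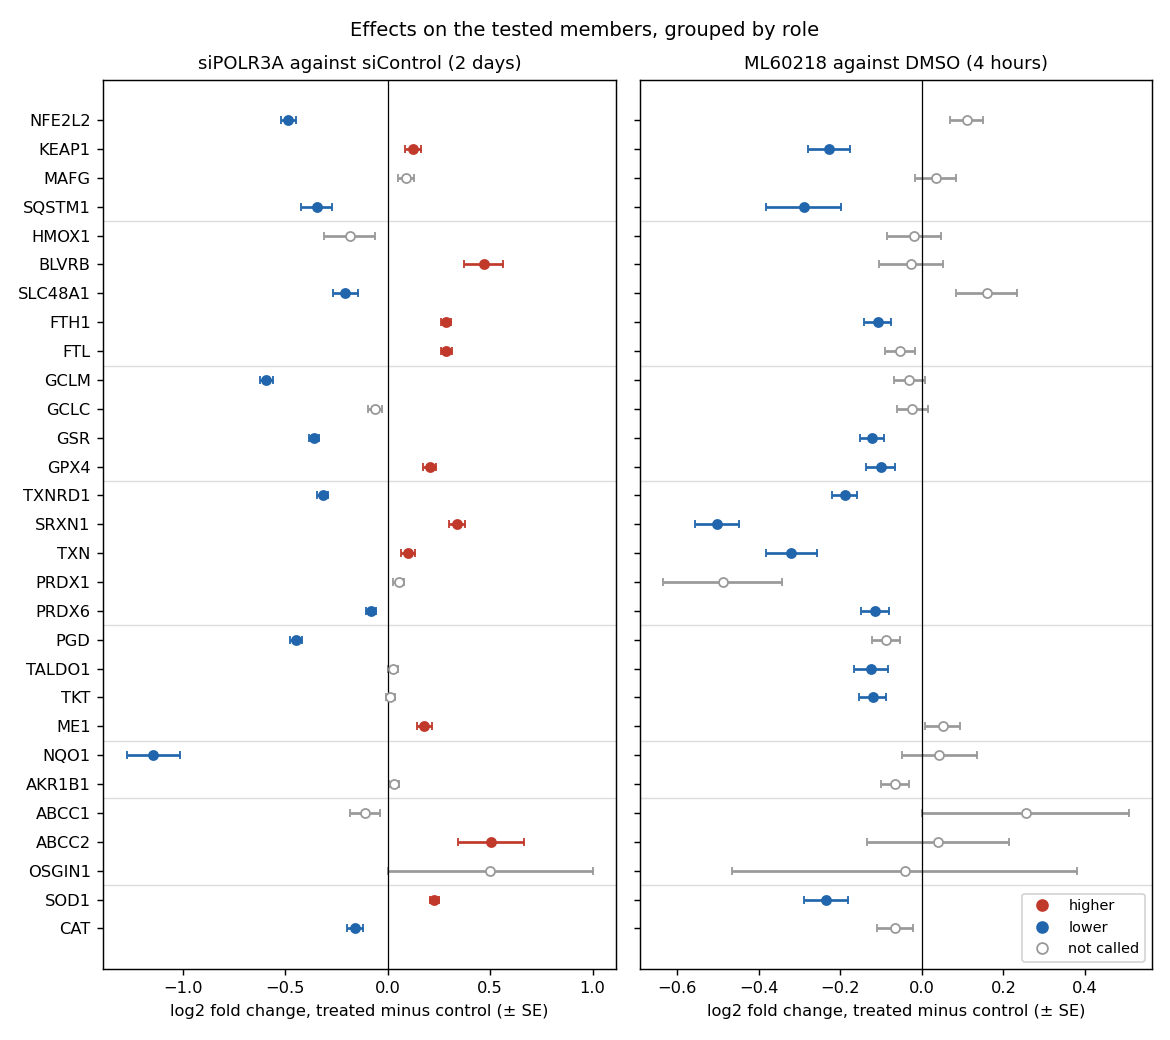
Log2 fold change of the 29 tested members in siPOLR3A against siControl (left) and in ML60218 against DMSO (right), grouped by role, with the SE as error bars, on separate horizontal scales. Filled points passed the test (red higher, blue lower) and open points did not: 10 rose and 10 fell on the left, and 12 fell on the right.

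Of the 4 regulators, 2 fell and 1 rose, where 29.2% of all genes were called lower and 27.4% higher. NFE2L2 (ENSG00000116044, GRCh38 chromosome 2, 177227595 to 177392697, minus strand) read 63.2, 64.1 and 68.3 CPM in the siControl group and 46.7, 47.3 and 45.6 CPM in the siPOLR3A group. Every siPOLR3A library lay below every siControl library, and the log2 fold change was −0.49 with an SE of 0.0366 (adjusted p 5.78e-08). KEAP1 (ENSG00000079999, GRCh38 chromosome 19, 10486120 to 10503741, minus strand) stood at 36.5, 39.8 and 38.3 CPM in siControl and 41.7, 40.6 and 42.7 CPM in siPOLR3A. The siPOLR3A libraries were all slightly higher, a log2 fold change of 0.12 with an SE of 0.0407 (adjusted p 0.0185). This small rise was lost without siControl library 1 (adjusted p 0.0669) and without siPOLR3A library 1 (0.05) or 3 (0.0789), and it turned to −0.041 once a trend with GC content and length was removed (adjusted p 0.0016 to 0.417 over 19 alternatives).

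SQSTM1 (ENSG00000161011, GRCh38 chromosome 5, 179806398 to 179838078, plus strand) encodes p62, an autophagy receptor that binds KEAP1 and is itself an NRF2 target. It was at 43.9, 46.5 and 53.6 CPM in siControl and 38.4, 36.4 and 38.5 CPM in siPOLR3A. The groups did not overlap, and siControl library 3 was the highest of the 6. SQSTM1 fell, its log2 fold change being −0.35 with an SE of 0.0743 (adjusted p 0.00557). MAFG, the small MAF partner, did not pass the test (0.088, adjusted p 0.0667), although it was called higher without siControl library 1 (adjusted p 0.0341) or siPOLR3A library 2 (0.0477), within a range of 0.00537 to 0.889.

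Of 5 genes of heme and iron handling, 3 rose and 1 fell, beside 27.4% of all genes called higher and 29.2% lower. HMOX1 (ENSG00000100292, GRCh38 chromosome 22, 35380361 to 35394214, plus strand) encodes heme oxygenase, which opens the heme ring and is among the most inducible NRF2 targets. It stood at 11.1, 8.22 and 10.1 CPM in siControl and 7.54, 9.59 and 8.74 CPM in siPOLR3A. The groups overlapped, and the difference of −0.19 did not pass the test (SE 0.125, adjusted p 0.24). Without siControl library 2, the lowest of its group, HMOX1 was called lower at −0.30 (adjusted p 0.0279, range over the alternatives 0.0279 to 0.591).

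BLVRB (ENSG00000090013, GRCh38 chromosome 19, 40447765 to 40465840, minus strand), which reduces biliverdin, was at 11.1, 8.54 and 9.46 CPM in siControl and 13.6, 14.3 and 12.3 CPM in siPOLR3A. All siPOLR3A libraries were higher, and BLVRB rose by 0.47 on the log2 scale (SE 0.0938, adjusted p 0.00114). The value ranged from 0.31 to 0.58 over the alternatives. The ferritin chains, which store iron, rose by nearly the same amount: the heavy chain FTH1 went from 399 ± 6.68 to 486 ± 11.9 CPM (log2 fold change 0.28, SE 0.0243, adjusted p 2.21e-07). The light chain FTL went from 141 ± 2.61 to 172 ± 1.79 CPM (log2 fold change 0.29, SE 0.025, adjusted p 2.7e-07). Both chains were higher in every siPOLR3A library. SLC48A1, a heme transporter, went the other way, from 16.8 ± 1.12 to 14.6 ± 0.114 CPM (log2 fold change −0.21, SE 0.0609, adjusted p 0.00982), and its call was lost in 5 of 19 alternatives.

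Of 4 glutathione enzymes, 2 fell, 1 rose and 1 was not called, beside 27.4% of all genes called higher and 29.2% lower. GCLM and GCLC were not compared with each other by a test. GCLM (ENSG00000023909, GRCh38 chromosome 1, 93885205 to 93909456, minus strand) stood at 62.7, 62.1 and 61.6 CPM in siControl and 41.4, 40.8 and 41.4 CPM in siPOLR3A. Replicates lay close together, every siPOLR3A library was lower, and GCLM fell, its log2 fold change being −0.59 with an SE of 0.0312 (adjusted p 1.35e-09). GCLC (ENSG00000001084, GRCh38 chromosome 6, 53497341 to 53616970, minus strand), the catalytic subunit of the same ligase, was at 69.3, 72.7 and 72.5 CPM and 71.3, 67.2 and 66.8 CPM. The groups overlapped and the difference of −0.062 did not pass the test (adjusted p 0.142), except without siPOLR3A library 1 (adjusted p 0.0433, range 0.0433 to 0.945).

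GSR (ENSG00000104687, GRCh38 chromosome 8, 30678061 to 30727999, minus strand), which returns oxidised glutathione to its reduced form, was at 149, 151 and 149 CPM in siControl and 116, 117 and 116 CPM in siPOLR3A. All siPOLR3A libraries lay below all siControl libraries, a log2 fold change of −0.36 with an SE of 0.0245 (adjusted p 1.93e-08). GPX4, the glutathione peroxidase that removes lipid peroxides, rose from 118 ± 3.96 to 136 ± 3.26 CPM (log2 fold change 0.20, SE 0.0306, adjusted p 5.41e-05). With the trend on GC content and length removed, GPX4 stood at 0.049 and was not called (adjusted p 0.2, range 4.89e-09 to 0.2).

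In the thioredoxin system the reductase fell while sulfiredoxin rose. TXNRD1 (ENSG00000198431, GRCh38 chromosome 12, 104215779 to 104350305, plus strand), the NADPH-dependent thioredoxin reductase, read 207, 204 and 212 CPM in siControl and 163, 171 and 166 CPM in siPOLR3A. The groups were well apart, and the log2 fold change was −0.32 with an SE of 0.0265 (adjusted p 1.66e-07). SRXN1 (ENSG00000271303, GRCh38 chromosome 20, 646615 to 653370, minus strand), which repairs over-oxidised peroxiredoxins, was at 34.3, 37.4 and 35.8 CPM in siControl and 46.1, 45.9 and 43.9 CPM in siPOLR3A. Every siPOLR3A library was higher, and SRXN1 rose by 0.34 (SE 0.0405, adjusted p 6.61e-06).

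TXN (ENSG00000136810, GRCh38 chromosome 9, 110243811 to 110256640, minus strand), thioredoxin itself, stood at 163, 159.9 and 176 CPM and 181, 176 and 178 CPM. The groups overlapped, since siControl library 3 lay above siPOLR3A library 2, and the rise of 0.10 (adjusted p 0.0242) was lost without siControl library 1 (adjusted p 0.0798) or 2 (0.113) and without siPOLR3A library 1 (0.0924) or 3 (0.067), within a range of 0.000566 to 0.152. PRDX1 was not called (0.053, adjusted p 0.0985), although upper quartile scaling called it higher (adjusted p 0.00155, range 0.00155 to 0.687). PRDX6, a peroxiredoxin that uses glutathione, fell slightly (log2 fold change −0.081, adjusted p 0.00903), and 5 of 19 alternatives did not call it.

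Of the 4 enzymes that feed NADPH, PGD (ENSG00000142657, GRCh38 chromosome 1, 10398592 to 10420144, plus strand) of the oxidative pentose phosphate pathway was the only one to fall. It stood at 167, 175 and 179 CPM in siControl and 130.2, 128 and 124 CPM in siPOLR3A. The lowest siControl library was still above all siPOLR3A libraries, and the log2 fold change was −0.45 with an SE of 0.0304 (adjusted p 1.96e-08). The non-oxidative enzymes TALDO1 (0.024) and TKT (0.013) were not called (adjusted p 0.445 and 0.658). Both were called higher under upper quartile scaling (adjusted p 0.0101 and 0.0121) and under total counts (0.0282 and 0.0332). Correction for GC content and length instead gave a lower call for TKT, at −0.12 (adjusted p 0.000672, range 0.000672 to 0.898). The same correction put TALDO1 at −0.053 without a call (adjusted p 0.0966, range 0.0101 to 0.706). ME1, the cytosolic malic enzyme, rose from 56.3 ± 1.78 to 63.8 ± 1.65 CPM (log2 fold change 0.18, SE 0.0346, adjusted p 0.000521).

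NQO1 (ENSG00000181019, GRCh38 chromosome 16, 69706996 to 69726951, minus strand) showed the largest change of any member. It was at 4.72, 4.46 and 5.07 CPM in siControl and 2.40, 1.88 and 2.13 CPM in siPOLR3A with between 69.7 and 92.6 estimated reads in the siPOLR3A libraries. Every siPOLR3A library lay far below every siControl library, and NQO1 fell, its log2 fold change being −1.15 with an SE of 0.13 (adjusted p 3.87e-06). AKR1B1, the aldose reductase, was not called (0.029, adjusted p 0.324). Among the exporters, ABCC2 (ENSG00000023839, GRCh38 chromosome 10, 99782640 to 99852594, plus strand) stood at 1.53, 1.25 and 1.53 CPM in siControl and 2.02, 2.03 and 2.07 CPM in siPOLR3A. The groups did not overlap, and ABCC2 rose by 0.50 with an SE of 0.16 (adjusted p 0.0155), a call that was lost with DESeq2 (adjusted p 0.11) and without siControl library 2 (0.0625, range 0.008 to 0.11).

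ABCC1, another exporter of conjugates, was not called (−0.11, adjusted p 0.228), but was called lower without siPOLR3A library 2 (adjusted p 0.0449, range 0.0436 to 0.941). OSGIN1, at between 2 and 15 reads per library, showed no difference detectable at this depth (0.50, SE 0.499, adjusted p 0.418). The enzymes that remove superoxide and hydrogen peroxide diverged: SOD1 rose from 279 ± 4.45 to 327 ± 3.78 CPM (log2 fold change 0.23, SE 0.0227, adjusted p 1.06e-06). Catalase (CAT) fell from 49.3 ± 1.71 to 44.2 ± 1.50 CPM (log2 fold change −0.16, SE 0.0386, adjusted p 0.00266).

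**Figure D3:**
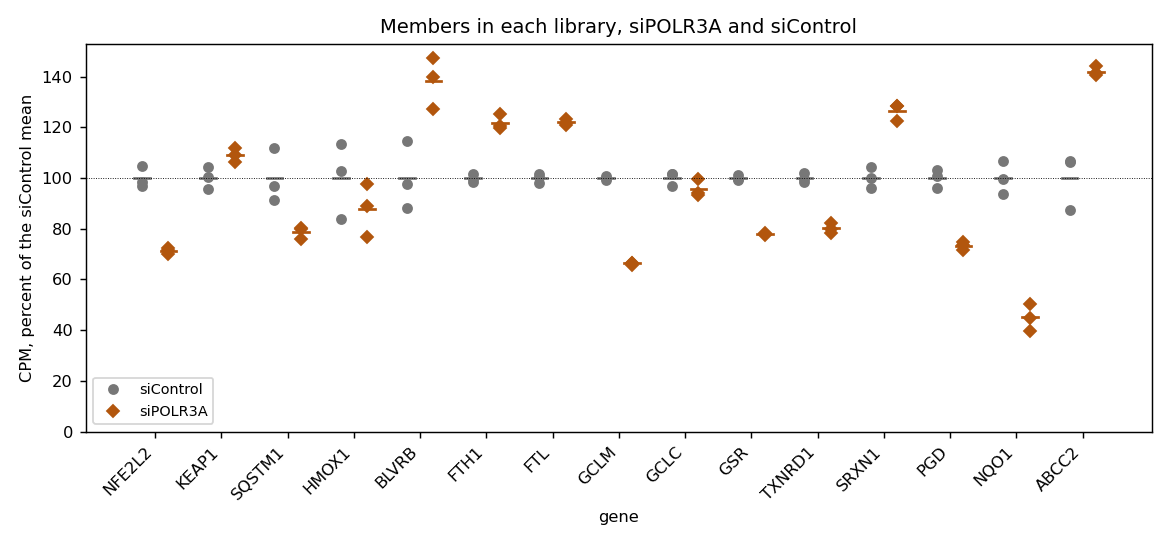
CPM of 15 members in each siControl (grey circles) and siPOLR3A (orange diamonds) library, as a percentage of the siControl mean of the gene, with a bar at each group mean and the vertical axis from 0. NFE2L2, GCLM, GSR, TXNRD1, PGD and NQO1 lie below the control libraries, BLVRB, FTH1, FTL, SRXN1 and ABCC2 above them, and HMOX1 and GCLC overlap.

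With ML60218, 12 of the 29 tested members fell and 0 rose (edgeR quasi-likelihood test). NFE2L2, which was not called here, was called higher in 8 of 19 alternatives, some of which changed only the filter on low counts, the libraries or the transcripts included. At an unadjusted p under 0.05 there were 14 lower and 1 higher. DESeq2 also called 12, all lower, but with PRDX1 (adjusted p 0.00559) in place of GPX4 (0.076). Among all 15461 genes, 39% were called, 18.1% higher and 20.9% lower, and 41.4% of the members were called, close to the share over all genes. Among the called members SRXN1 fell most, followed by TXN, SQSTM1, SOD1 and KEAP1. PRDX1, at −0.49, lay between SRXN1 and TXN but narrowly missed the threshold (adjusted p 0.0552). NQO1, GCLM, GCLC and HMOX1 were not called. The tested members had a median of −0.066, against 0.0054 for all genes.

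The direction of the smaller changes depended on the scaling. With upper quartile scaling 7 members were called, 6 of them lower, and with total counts 7 were called, 5 of them lower. Tested as deposited TPM with limma, 5 members were called, 3 lower and 2 higher, and all genes together were shifted upward by 0.12 at a pseudocount of 1 and 0.13 at 0.1. FTH1 shows this: it fell, its log2 fold change being −0.11 in CPM (SE 0.0332, adjusted p 0.0268), while its mean TPM was 721 ± 20.5 in DMSO and 722 ± 17.4 in ML60218. Fits without DMSO library 1, 2 or 3 called 5, 6 and 7 members. SRXN1 and TXN were the 2 members called lower in all 19 alternatives.

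KEAP1 and SQSTM1 were the regulators that fell. NFE2L2 stood at 72.1, 72.7 and 71.6 CPM in DMSO and 73.9, 79.1 and 80.5 CPM in ML60218. All ML60218 libraries were higher, but the difference of 0.11 did not pass the test (SE 0.0409, adjusted p 0.057). It passed in the fit without ML60218 library 1 (adjusted p 0.00832, range 0.00459 to 0.162). KEAP1 was at 46.9, 46.0 and 46.9 CPM in DMSO and 41.8, 40.5 and 37.1 CPM in ML60218. The groups did not overlap, and the log2 fold change was −0.23 with an SE of 0.0506 (adjusted p 0.00627), a call that was lost on TPM (adjusted p 0.49 at a pseudocount of 1) and with an offset for isoform length (0.0574), within a range of 0.000777 to 0.496.

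SQSTM1 stood at 46.7, 46.2 and 49.6 CPM in DMSO and 43.9, 39.6 and 33.4 CPM in ML60218. The ML60218 libraries were all lower but widely spread, and the fall of −0.29 (SE 0.0923) passed narrowly (adjusted p 0.0406). It was lost in 12 of 19 alternatives, including fits without DMSO library 1 (adjusted p 0.0869), 2 (0.0812) or 3 (0.12) and without ML60218 library 2 (0.0882), within a range of 0.00408 to 0.261. MAFG was not called (0.034, adjusted p 0.625).

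In the thioredoxin system 4 of 5 members fell, and PRDX1 was not called, where 20.9% of all genes were called lower. SRXN1 read 47.3, 46.1 and 43.4 CPM in DMSO and 33.9, 32.2 and 30.5 CPM in ML60218. Every ML60218 library lay well below every DMSO library, and SRXN1 fell, its log2 fold change being −0.50 with an SE of 0.0534 (adjusted p 0.00022). TXN stood at 220.3, 219 and 228 CPM in DMSO and 189, 187 and 159 CPM in ML60218. ML60218 library 3 was the lowest, the groups did not overlap, and the log2 fold change was −0.32 with an SE of 0.063 (adjusted p 0.00564).

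TXNRD1 was at 241, 243 and 234 CPM in DMSO and 209.8, 214 and 207 CPM in ML60218. All ML60218 libraries were lower, a log2 fold change of −0.19 with an SE of 0.0307 (adjusted p 0.00136), but on TPM the value was −0.0012 (adjusted p 0.99 at a pseudocount of 1, range 1.12e-05 to 0.991). PRDX1 went from 655, 640.3 and 646 CPM in DMSO to 529, 487 and 367 CPM in ML60218. Its groups did not overlap, yet library 3 lay far below the other ML60218 libraries and the difference of −0.49 (SE 0.146) missed the threshold (adjusted p 0.0552). Without ML60218 library 3 the value was −0.35 (adjusted p 0.000134), and without library 1 it was −0.60 (0.0307), within a range of 0.000134 to 0.137.

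Among the glutathione genes, GCLM stood at 74.3, 72.0 and 72.6 CPM in DMSO and 69.0, 71.8 and 73.4 CPM in ML60218, and GCLC at 72.7, 71.4 and 72.6 and 69.5, 69.8 and 73.6 CPM. For both subunits the groups overlapped and the differences of −0.031 and −0.024 were within the spread (adjusted p 0.557 and 0.657). GSR was at 151, 149 and 148 CPM in DMSO and 138, 139 and 135 CPM in ML60218. It was lower in every ML60218 library (log2 fold change −0.12, SE 0.0301, adjusted p 0.01) and was not called without DMSO library 1 (adjusted p 0.0549) or with total counts (0.224), and on TPM it stood at 0.017 (range 0.000959 to 0.835).

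NQO1 was at 5.54, 5.68 and 5.83 CPM in DMSO and 5.80, 6.24 and 5.50 CPM in ML60218, and HMOX1 at 17.1, 15.1 and 16.2 and 16.0, 16.3 and 15.5 CPM. Neither of these common NRF2 readouts differed beyond the spread between libraries (NQO1 0.043, SE 0.0916, adjusted p 0.749, and HMOX1 −0.020, SE 0.066, adjusted p 0.842). PGD stood at 195, 193 and 195 CPM in DMSO and 185, 188 and 176 CPM in ML60218. The groups were apart but the difference of −0.088 was not called (adjusted p 0.0623), except without ML60218 library 2 (adjusted p 0.046) and in the fit of all 12 libraries (0.0373), within a range of 0.0373 to 0.683. BLVRB was at 10.6, 10.2 and 10.8 CPM in DMSO and 10.5, 11.1 and 9.44 CPM in ML60218, ABCC2 at 1.27, 1.04 and 1.22 and 1.29, 1.20 and 1.15 CPM. Both pairs of groups overlapped (−0.026 and 0.039, adjusted p 0.824 and 0.879).

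SOD1 fell from 315 ± 0.764 to 268 ± 22.6 CPM (log2 fold change −0.23, SE 0.0547, adjusted p 0.0097), and on TPM the fall of −0.10 was not called (adjusted p 0.124, range 0.000191 to 0.124). The remaining calls, those of TALDO1, TKT, PRDX6, FTH1 and GPX4, lay between −0.10 and −0.12, and each was lost in several alternatives. FTH1 and PRDX6 were not called without any one of the DMSO libraries (adjusted p 0.0597 to 0.104 and 0.0701 to 0.0803). TKT was not called without DMSO library 1 (0.077) or 2 (0.0653). TALDO1 was not called without any of the 3 DMSO libraries or ML60218 library 2 or 3 (adjusted p 0.0704 to 0.106). GPX4 was not called without any of the 3 DMSO libraries or ML60218 library 1 or 3 (adjusted p 0.0689 to 0.159). On TPM all 5 of these genes were above 0, GPX4 and TKT at 0.023 and 0.043.

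SLC48A1 (0.16, adjusted p 0.121), FTL (−0.054, 0.268), ME1 (0.051, 0.382), AKR1B1 (−0.065, 0.165), CAT (−0.066, 0.275) and OSGIN1 (−0.043, 0.946) were not called. ABCC1 had a large but variable difference of 0.25 (SE 0.254, adjusted p 0.482). ML60218 library 3, at 6.78 CPM, was the lowest of all 6 libraries, and without it ABCC1 was called higher at 0.48 (adjusted p 0.0167, range 0.0167 to 0.829).

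**Figure D4:**
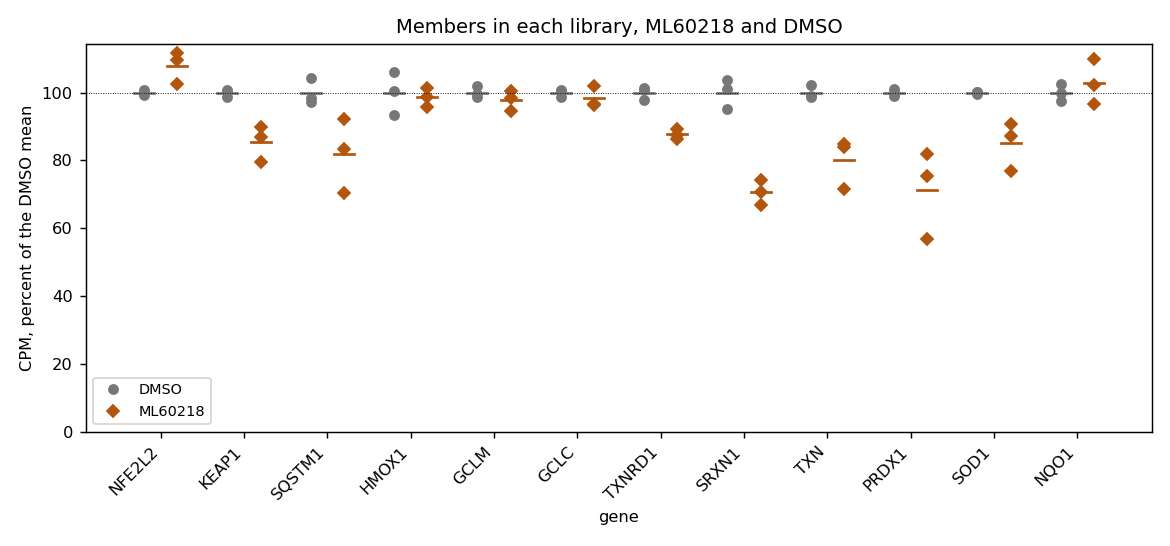
CPM of 12 members in each DMSO (grey circles) and ML60218 (orange diamonds) library, as a percentage of the DMSO mean of the gene, with a bar at each group mean and the vertical axis from 0. SRXN1, TXN, TXNRD1, KEAP1 and SOD1 lie below the DMSO libraries, PRDX1 is lowest in 1 ML60218 library, and HMOX1, GCLM, GCLC and NQO1 overlap.

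The changes in the experiments were then compared, which differ in agent, duration and control, so that these cannot be told apart. The difference, computed by subtracting the ML60218 change from the siPOLR3A change in a fit of all 12 libraries, was called for 18 of 29 members, 11 positive and 7 negative, a share of 62.1% against 50.9% of all 15780 genes. SRXN1 differed most on the positive side (0.85, SE 0.0667, adjusted p 4.52e-08), with a rise after the siRNA and a fall with ML60218. NQO1 differed most on the negative side (−1.18, SE 0.148, adjusted p 6.88e-06). NFE2L2 (−0.59), GCLM (−0.56) and PGD (−0.35) were also more negative after the siRNA, with adjusted p of 3.63e-07, 8.35e-08 and 9.83e-06.

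KEAP1, FTH1, GPX4, SRXN1, TXN and SOD1 were called in opposite directions, 6 members that rose with siPOLR3A but fell with ML60218, although on TPM the ML60218 values of FTH1 and GPX4 were above 0 and the siPOLR3A rise of KEAP1 turned once the GC and length trend was removed. SQSTM1, GSR, TXNRD1 and PRDX6 were called lower in both experiments, although on TPM the ML60218 values of GSR and PRDX6 were above 0. For SQSTM1 and PRDX6 no difference between the effects was called (−0.052 and 0.039, adjusted p 0.781 and 0.454), while GSR fell further after the siRNA (−0.23, adjusted p 4.35e-05). For TXNRD1 the difference of −0.12 (adjusted p 0.019) was lost without siPOLR3A library 1 (adjusted p 0.0606) or DMSO library 3 (0.0563), within a range of 0.000514 to 0.457. For GCLC, HMOX1 and MAFG no difference was called (−0.034, −0.16 and 0.059, with SE 0.0503, 0.148 and 0.0627), which does not show that these genes respond alike. The difference was called with the same sign in all 24 alternatives for FTH1, FTL, SRXN1, TXN, PRDX1 and SOD1 and for NFE2L2, SLC48A1, GCLM, GSR, PGD and NQO1.

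**Figure D5:**
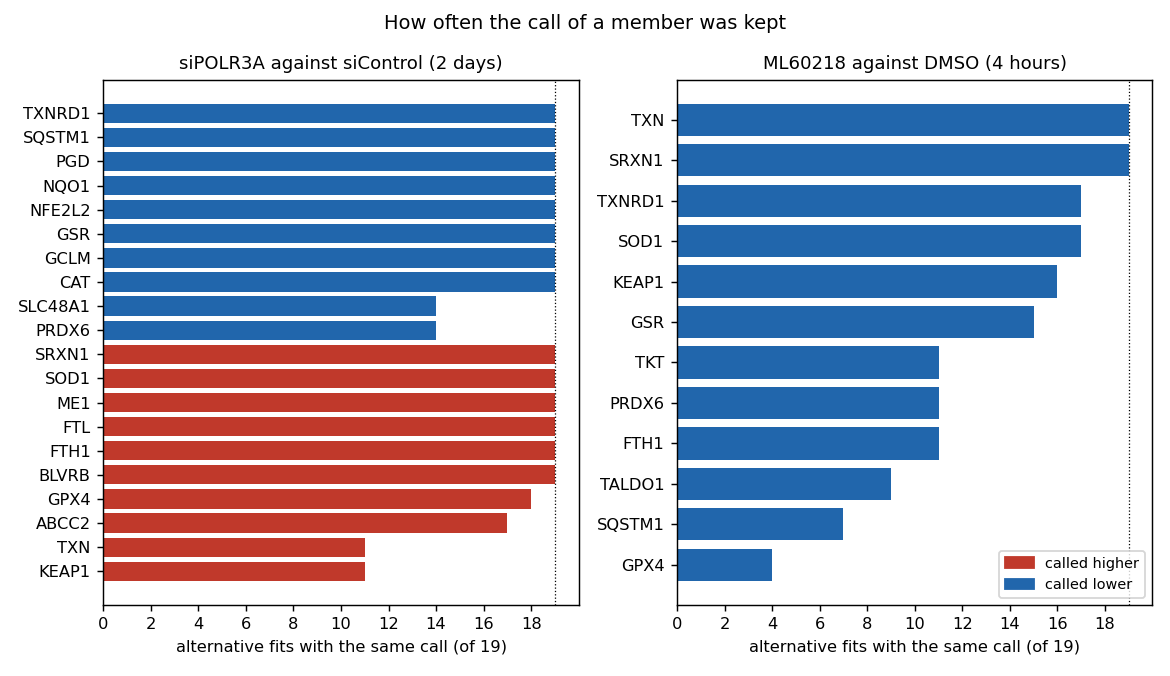
Number of the 19 alternative fits in which a called member was called again in the same direction, for siPOLR3A (left, 20 members) and ML60218 (right, 12 members), with red bars for rises and blue bars for falls and a dotted line at 19. On the left 14 members reach the line, on the right SRXN1 and TXN do.

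The deposited transcript values showed which isoforms carried these levels. The members had 255 transcripts, of which 117 could be tested after the siRNA and 14 were called, 5 higher and 9 lower, against 11.3% of all transcripts tested. The leading isoforms of NFE2L2, GCLM, GSR, PGD, SRXN1, SOD1 and FTL were among them. For NQO1 the estimated shares of the isoforms also differed between the groups, but shares were not tested. The gene held between 69.7 and 92.6 estimated reads in the siPOLR3A libraries. NQO1-201 held 40.6 ± 3.26% of the reads of the gene in siControl and 64.5 ± 6.73% in siPOLR3A, though its own level was not called (−0.50, adjusted p 0.235). NQO1-203 held 12.5 ± 5.07% in siControl, at 0.771, 0.311 and 0.568 CPM, and was listed at 0 in every siPOLR3A library (adjusted p 0.0249). NQO1-202 fell, its log2 fold change being −1.98 (SE 0.289, adjusted p 0.0105).

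With ML60218, 121 member transcripts were tested and 2 were called, against 2.09% of all transcripts tested: SRXN1-201 was lower (−0.51, SE 0.0588, adjusted p 0.0286) and ABCC1-202 higher. ABCC1-202 was listed at 0 in every DMSO library and stood at 2.21, 2.62 and 3.45 CPM in ML60218 (adjusted p 0.0258), where it held 33.2 ± 19.2% of the ABCC1 reads. The share of ABCC1-204 was 97.0 ± 2.65% in DMSO and 63.1 ± 21.7% in ML60218, and its lowest value, 38.4%, was again in ML60218 library 3. SQSTM1-201 held 66.0 ± 7.85% in DMSO and 55.6 ± 4.24% in ML60218. Neither call was made again when any 1 of the 6 libraries was left out: edgeR then called 0 member transcripts, with between 17 and 28 at an unadjusted p under 0.05. Estimated counts divide shared reads among overlapping isoforms, so these values carry an error that the spread between libraries does not show.

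Short matches in 3′ UTRs were counted because an siRNA can also lower other transcripts through its seed, the few bases near its 5′ end. The sequences GAGGGA and GACGTA were chosen after values of these data had been seen, and they cannot be set against the siRNAs used. The counts therefore only describe these UTRs, and a seed effect was not tested. GAGGGA occurred in the 3′ UTR of the leading isoform of 35.1% of 14332 genes tested. It occurred in 43.4% of the genes called lower after the siRNA, 31.1% of those called higher and 31.6% of those not called, with median UTR lengths of 1327, 1059 and 913 bases. Of the 29 tested members, 5 held it: 3 of the 10 that fell, 0 of the 10 that rose and 2 of the 9 not called. The median UTR of the members was 1204.5 bases among those that fell and 400.5 bases among those that rose, and the part of length in these counts was not tested. GACGTA occurred in 3.93% of all genes, in 2.28% of those called lower, 6.69% of those called higher and 3.27% of those not called, and in 0 of the 29 members. The 2 holders not called were HMOX1 and MAFG, with log2 fold changes of −0.19 and 0.088. The site of MAFG is not shown, so every site shown belongs to a gene with a negative log2 fold change. Those of HMOX1 and of the 3 members that fell are shown in the sense of the mRNA, with the match in capitals.
NQO1: aggaataaatgaGAGGGAatcgactgtatt
GCLM: aagatattttaaGAGGGAactttaatatcc
SLC48A1, first site: cacctaacttggGAGGGAaggggctgttgg
SLC48A1, second site: ggagtgggcaggGAGGGAgtggtagtggca
HMOX1, first site: cttctttctagaGAGGGAattctcttggct
HMOX1, second site: tgcgtgggtgggGAGGGAggtgtttaacgg
NFE2L2, PGD, GSR, TXNRD1, SQSTM1, CAT and PRDX6 fell without this sequence in the UTR scanned.

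Other genes of the pathway were read from 4 lists of 114 genes written from general knowledge, of which 107 were tested in each comparison. The lists were written with earlier results of these data known, so their shares of called genes only describe the lists. Of 20 further regulators of NRF2, 6 rose and 6 fell after the siRNA, 60% called against 56.6% of all genes. The largest change was the fall of NFE2L1, the related factor that drives proteasome genes, from 173 ± 1.16 to 59.9 ± 1.07 CPM (log2 fold change −1.53, SE 0.0268, adjusted p 4.21e-14). MAFK, a small MAF partner, rose by 0.52 (adjusted p 1.48e-06). With ML60218, 4 regulators rose and 7 fell, 55.0% called against 39% of all genes. Both CUL3 (log2 fold change −0.62, SE 0.14, adjusted p 0.0238) and RBX1 (log2 fold change −0.52, SE 0.107, adjusted p 0.0105), subunits of the ligase that degrades NRF2, fell, and PALB2, a KEAP1-binding DNA repair protein, rose by 0.70 (adjusted p 0.000443). The CUL3 call was lost without DMSO library 1 (adjusted p 0.0728), 2 (0.0694) or 3 (0.0693) and without ML60218 library 2 (0.0524).

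Of 30 other NRF2 targets tested, 7 rose and 12 fell after the siRNA, a share of 63.3% beside the 56.6% of all genes. The carbonyl reductase CBR3 fell, its log2 fold change being −0.67 (adjusted p 0.000456) and pirin (PIR) with one of −0.60 (adjusted p 1.18e-05). With ML60218, 3 rose and 8 fell, 36.7% beside 39%. SLC7A11, the cystine importer that limits glutathione synthesis, rose from 26.7 ± 1.50 to 90.0 ± 12.2 CPM (log2 fold change 1.76, SE 0.105, adjusted p 0.000173), and the NADPH source IDH1 fell, its log2 fold change being −0.52 (adjusted p 0.00194). SLC7A11 is also a known target of the stress factor ATF4.

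In the glutathione system 6 of 25 rose and 12 fell after the siRNA, 72.0% beside 56.6% of all genes. Among those that fell were SLC25A40, a mitochondrial carrier (−0.74, adjusted p 5.15e-08), and GLRX5, a mitochondrial glutaredoxin (−0.54, adjusted p 2.97e-09). With ML60218, 3 rose and 8 fell, 44.0% beside 39%. The glutathione-degrading enzyme CHAC1 rose from 1.64 ± 0.0217 to 14.6 ± 1.61 CPM (log2 fold change 3.15, SE 0.108, adjusted p 6.29e-07). SLC3A2, the partner chain of SLC7A11, rose by 0.97 (adjusted p 0.0191), a call that was lost without any of the 3 DMSO libraries (adjusted p 0.0694 to 0.0705) or ML60218 library 2 (0.0554).

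Of 32 further peroxide, superoxide and thioredoxin enzymes, 13 rose and 6 fell after the siRNA, and 1 rose and 15 fell with ML60218. These calls made up 59.4% and 50% of the list, beside 56.6% and 39% of all genes. The direction of ML60218 calls depends on scaling, since over all genes 46.4% of calls were higher here, against 67.0% under total counts and 82.2% on log2(TPM + 1). After the siRNA the endoplasmic reticulum thioredoxin-like protein TXNDC12 fell, its log2 fold change being −2.04 with an SE of 0.0362 (adjusted p 4.21e-14). The methionine sulfoxide reductase MSRB3 (1.22, adjusted p 1.59e-10) and the sestrin SESN3 (0.57, adjusted p 5.37e-09) rose. TXNIP, which binds and inhibits thioredoxin, rose by 0.53 after the siRNA (adjusted p 3.98e-08) and fell, its log2 fold change being −0.59 with ML60218 (adjusted p 0.000107).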

How the data were processed

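Sample titles gave the groups and the numbers of the replicates. The deposited table holds, per the file headers, an estimated count and a TPM value for each of 194142 transcripts in each of 12 libraries. Per the submitters' processing notes, bcl2fastq 2.20, Trim Galore and DESeq2 were used and the build was hg38. The quantification program, its version and the transcript release are not given in the sources used here. All columns were used.

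Gene membership came from stable identifiers in GENCODE 29 on GRCh38, which matched 81.6% of the transcripts. Unmatched transcripts held between 8.37% and 8.97% of the reads and stayed out of library sizes and tests. For the planned test of counts, the estimated counts of all transcripts of a gene were added up and rounded. edgeR 4.0.16 (R 4.3.3) fitted each comparison on 6 libraries (filterByExpr with a minimum count of 10 and total of 15, TMM scaling, robust quasi-likelihood test, two-sided), with Benjamini-Hochberg adjustment over all genes and calls under 0.05. The SE is the size of the log2 fold change divided by the square root of F. CPM use TMM-scaled library sizes. An exact test of 3 libraries against 3 cannot give a p below 0.1. The scripts were tested on simulated data. The labels do not say that replicates were separate cultures, so p-values measure the spread between these libraries, which may be technical.

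The members and lists were chosen with earlier results of these data known. Values in every library are given for 8 genes (NFE2L2, KEAP1, HMOX1, NQO1, GCLM, GCLC, TXNRD1 and SRXN1) and for members called with a log2 change of 0.3 or more in either direction. Genes of the 4 lists are named where called with at least 0.5, at most 5 per list and comparison. PRDX1 and ABCC1 with ML60218 were singled out after their values were seen. A transcript is named where it holds at least 10% of the reads of its gene and its share differs by at least 10 points. Transcripts named beyond this rule were chosen after their values were seen. Alternatives were RLE, upper quartile and total-count scaling, other filters on low counts, DESeq2 1.42.0, a replicate block, a fit of all 12 libraries, limma 3.58.1 on log2(TPM + 1) and log2(TPM + 0.1), an offset for isoform length, neighbouring unmatched transcripts included, removal of a GC and length trend, and each library left out.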

Additional observations from a re-analysis of the deposited data

Results flagged for a closer look

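The members called in both experiments but in opposite directions, with a called difference between the effects, were KEAP1, FTH1, GPX4, SRXN1, TXN and SOD1. The siPOLR3A change less the ML60218 change, in one edgeR fit of all 12 libraries, was 0.85 for SRXN1 (SE 0.0667, adjusted p 4.52e-08) and 0.47 for SOD1 (SE 0.0615, adjusted p 1.53e-05). It was 0.43 for TXN (SE 0.0816, adjusted p 0.000857) and 0.40 for FTH1 (SE 0.0409, adjusted p 8.48e-07). It was 0.36 for KEAP1 (SE 0.0638, adjusted p 0.000218) and 0.31 for GPX4 (SE 0.048, adjusted p 5.51e-05). The differences of SRXN1, SOD1, TXN and FTH1 were called in all 24 alternatives, while those of KEAP1 and GPX4 were lost on the TPM scale and after correction for GC content and length. In SRXN1 the call in each comparison, and not only the difference, was made in all 19 alternatives. Other single calls were less steady. With ML60218, GPX4 was called lower in 4 of 19 alternatives and FTH1 in 11. After the siRNA, KEAP1 and TXN were each called higher in 11 of 19.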

How the results depend on the processing

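After the siRNA, the count of called members stayed within 1.5 times of 20 in every alternative (18 to 22 with 1 library left out), and so did the counts over all genes (7998 to 8361 with 1 library left out, 4159 to 6501 with ML60218). Of 550 values of members under alternatives, 499 kept direction and side of the threshold, 28 lost the call, 18 gained it and 5 turned. With ML60218 these were 408, 59, 22 and 61 of 550, and for the difference 414, 17, 0 and 1 of 432. The count of 12 members fell to 7 under upper quartile scaling, 7 under total counts, 5 and 5 on TPM at either pseudocount and 7 after correction for GC content and length, and ranged from 5 to 13 with 1 library left out. The count for the difference ranged from 18 to 19 with 1 library left out. Member transcripts called ranged from 10 to 13 after the siRNA and from 0 to 0 with ML60218 when 1 library was left out. The share of all called genes that were higher with ML60218 was 46.4%, against 58.6% under upper quartile scaling, 67.0% under total counts and 82.2% and 82.5% on TPM. After the siRNA it was 48.4%, against 58.7%, 57.0%, 51.9% and 51.8%. Depth limited OSGIN1 and the untested aldo-keto reductases.

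The deviations of same-numbered libraries correlated at −0.028, 0.043 and −0.12 in the siRNA experiment and at −0.036, 0.052 and −0.046 in the other. With 3 libraries per group these values show no pairing by replicate number, but they cannot settle whether libraries were prepared in pairs. With the replicate block, 20, 10 and 18 members were called after the siRNA, with ML60218 and for the difference, and 8493 and 5393 of all genes. SLC3A2, a list gene called higher with ML60218, was then not called (adjusted p 0.0536). Member transcripts called with the replicate block were 7 and 0, with 31 and 18 at an unadjusted p under 0.05 in edgeR.

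Values that changed sign are given as log2 fold changes, and the cause was not tested. After correction for GC content and length, the siRNA values were KEAP1 −0.041, MAFG −0.0072, TALDO1 −0.053, TKT −0.12 and AKR1B1 −0.021, the ML60218 values were HMOX1 0.035, BLVRB 0.074, FTL 0.032, GPX4 0.00056, ABCC2 −0.032 and OSGIN1 0.031, and the difference was TKT −0.035. All others concern ML60218. On log2(TPM + 1) they were HMOX1 0.11, BLVRB 0.10, FTH1 0.0023, FTL 0.066, GCLM 0.073, GCLC 0.12, GSR 0.017, GPX4 0.023, PRDX6 0.042, PGD 0.045, TALDO1 0.0051, TKT 0.043, AKR1B1 0.074, OSGIN1 0.041 and CAT 0.17. On log2(TPM + 0.1) they were HMOX1 0.12, BLVRB 0.11, FTH1 0.0023, FTL 0.066, GCLM 0.076, GCLC 0.12, GSR 0.017, GPX4 0.023, PRDX6 0.042, PGD 0.045, TALDO1 0.0052, TKT 0.043, AKR1B1 0.074, OSGIN1 0.11 and CAT 0.18. Under total counts they were HMOX1 0.051, BLVRB 0.044, FTL 0.016, GCLM 0.040, GCLC 0.047, AKR1B1 0.0056, OSGIN1 0.030 and CAT 0.0051, under upper quartile scaling HMOX1 0.019, BLVRB 0.013, GCLM 0.0082 and GCLC 0.016, and with the offset for isoform length OSGIN1 0.060 and CAT 0.043. With 1 library left out, the members whose sign turned in any fit were ABCC2 from −0.044 to 0.094, BLVRB from −0.078 to 0.036, HMOX1 from −0.070 to 0.025, MAFG from −0.0032 to 0.073, NQO1 from −0.0066 to 0.086 and OSGIN1 from −0.42 to 0.19.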
